A study of Mus musculus with 16 samples.

Results

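The neurofilament and spectrin skeleton of the axon was examined through 9 genes in the hippocampus of mice fed pioglitazone (PIO) or a control diet. The genes were Nefl, Nefm, Nefh and Ina for neurofilaments, Sptb, Sptan1 and Sptbn1 for spectrins, and Ank2 and Ank3 for ankyrins. They were chosen by name, and every probe set of the array whose only annotated symbol was one of them was taken, 29 of the 34945 probe sets with 1 symbol. A probe set is the group of short probes that gives 1 value for a transcript. Of the 29, 26 had a mean level above the 40th percentile of the array and were tested, at least 1 for each gene, so all 9 genes were among the 12266 tested. RNA came from 16 female 3xTg-AD mice, 1 Affymetrix array per animal. This strain models Alzheimer's disease with mutant human APP and tau transgenes driven in neurons by a Thy1 promoter and a mutant presenilin 1, and the animals of both diets carry all of these. The 8 PIO animals (subjects 9 to 16) ate a diet with 84 ppm of the drug, a daily dose near 18 mg per kg, for about 14 weeks from 10 months of age, and the 8 control animals (subjects 1 to 8) received a control diet. All were labelled 14 months old, and there was no group without the transgenes. The values were log2 levels as deposited, with array medians between 5.65 and 5.76, and precision is limited by how many arrays there are. In whole tissue, fewer cells of a type and less RNA per cell cannot be told apart.

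Neurofilaments are the intermediate filaments of neurons. The light, medium and heavy chains and alpha-internexin assemble together, fill large axons and set their calibre, and the light chain is released into body fluids when axons are damaged. Spectrins are long rods of paired alpha and beta chains that lie under the plasma membrane, where in axons they join actin rings at regular spacing. Ankyrins fasten this spectrin layer to ion channels and adhesion molecules, and ankyrin-G, the product of Ank3, organises the axon initial segment. These genes bear on the question of which neuronal genes of the hippocampus differed under PIO.

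All 9 genes had lower means with PIO, and none passed limma's test. For 8 of the 9 the difference was between -0.11 and -0.0082 log2 units, and for Sptb it was -0.19. The median over the 9 was -0.028, against 0.0045 over all 12266 genes, of which 47.3% were lower with PIO. The number of lower genes was 5 of 9 without PIO animals 14 to 16, a setting chosen with earlier results of these data known. These animals had the lowest means of the 9 members among the 16 arrays, so leaving them out raises the PIO mean. It was 5 of 9 on the arrays of the most common array code, which does not include PIO animals 15 and 16, so these counts are not independent. No gene of the 12266 (0%) had an adjusted p under 0.05 (smallest 0.457), and 859 (7.00%) had an unadjusted p under 0.05. Sptb was the only member at that unadjusted level, where 3.15% of all genes lay as lower genes. No member separated the groups without overlap, which 0.0326% of all genes did, 0.00815% as lower genes.

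**Figure D1:**
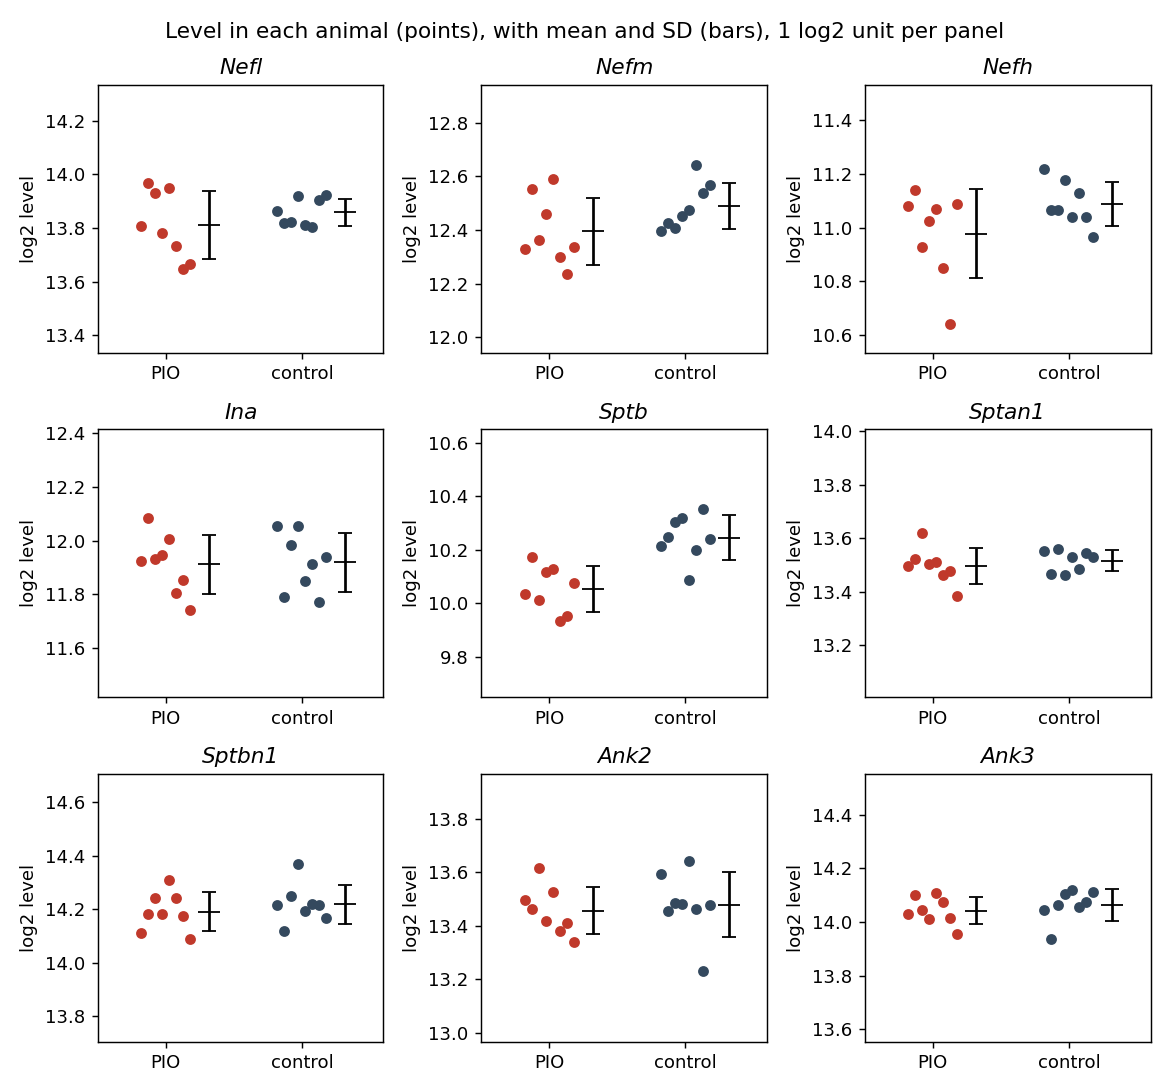
Log2 level of the 9 genes in each animal, PIO on the left and control on the right of each panel, for the probe set with the highest mean. Points are animals, bars are the mean and SD (n = 8 each), and every panel spans 1 log2 unit. The groups overlap in every panel, least for Sptb, where the PIO animals reach 10.17 and the control animals start at 10.09.

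Among the neurofilament genes, Nefl, which encodes the light chain, lay between 13.65 and 13.97 log2 units in PIO animals (median 13.79), against 13.80 to 13.92 in control animals (median 13.84). The PIO animals thus extended both below and above the control range, with 4 of 8 under the lowest control. The difference was -0.048 (SE 0.050, limma adjusted p = 0.869). The other Nefl probe set gave -0.045 (SE 0.049), and deviations from the group means on the 2 probe sets correlated with r = 0.89 over 16 arrays. The direction turned without PIO animals 14 to 16, to 0.029 (SE 0.044).

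Nefm, the medium chain, is the gene next to Nefl on chromosome 14, with 0 protein-coding genes between them in the RefSeq table. It was represented by 1 probe set. Nefm ranged from 12.23 to 12.59 in PIO animals (median 12.35), against 12.40 to 12.64 in control animals (median 12.46). Of the PIO animals 5 lay below the lowest control, and PIO animals 10 and 13 lay above the control median. The difference was -0.093 (SE 0.054, adjusted p = 0.762), and it was -0.030 (SE 0.057) without PIO animals 14 to 16.

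Nefh, the heavy chain, whose tail is heavily phosphorylated in axons, ranged from 10.64 to 11.14 in PIO animals (median 11.05), against 10.96 to 11.22 in control animals (median 11.07). The medians were close, and the lowest values were those of PIO animals 15 and 14, at 0.45 and 0.24 log2 units below the control mean. The difference was -0.11 (SE 0.064, adjusted p = 0.762). With the mean of the parvalbumin and fast-spiking markers as a covariate it was 0.032 (SE 0.062), so the sign turned. With the striatal marker mean as a covariate it was -0.011 (SE 0.053), and with the myelin marker mean -0.038 (SE 0.068). It was -0.040 (SE 0.050) without PIO animals 14 to 16 and -0.062 (SE 0.050) without PIO animal 15 alone.

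Ina encodes alpha-internexin, which joins the other chains in neurons of the central nervous system. It lay between 11.74 and 12.08 in PIO animals (median 11.93), against 11.77 to 12.06 in control animals (median 11.93). The groups covered nearly the same range, and the difference was -0.0082 (SE 0.056, 95% interval -0.13 to 0.11). Its 3 probe sets gave -0.065, -0.0082 and -0.0043, each smaller than its SE, and their deviations correlated with r between 0.65 and 0.86.

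Spread between animals was wider with PIO for the 3 neurofilament chains. The SD was 0.13 log2 units in PIO animals and 0.051 in control animals for Nefl, 0.13 and 0.086 for Nefm, and 0.17 and 0.083 for Nefh (n = 8 each). Over all 9 members 5 had the larger SD with PIO, against 59.0% of all genes, so a larger SD was not more frequent among them.

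The spectrin genes held the clearest difference. Sptb encodes beta-I spectrin, the beta chain of the red cell membrane that is also made in brain and muscle. On its brighter probe set, 1455226_at, it ranged from 9.93 to 10.17 in PIO animals (median 10.06), against 10.09 to 10.35 in control animals (median 10.24). All 8 PIO animals lay below the control median, 5 of them below the lowest control, and 7 of 8 control animals lay above the highest PIO animal. The means were 10.05 ± 0.085 with PIO and 10.25 ± 0.083 in control (SD, n = 8 each), a difference of -0.19 (SE 0.045, 95% interval -0.29 to -0.098), or -12.5%. It ranked 9 of 12266 genes by p, and its limma adjusted p was 0.532. An exact two-sided permutation test of this gene alone over all 12870 splits of the 16 arrays gave p = 0.000932, unadjusted. The call therefore did not pass the correction for the number of genes.

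The other Sptb probe set, 1450556_at, did not show the same size of difference. It read 5.48 to 5.91 in PIO animals, against 5.63 to 5.93 in control animals, with a difference of -0.034 (SE 0.056). Deviations on the 2 Sptb probe sets correlated weakly (r = 0.12, 16 arrays). With the mean of both standing for the gene, the Sptb difference was -0.11 (SE 0.040). None of the 9 listed erythrocyte markers could be tested: Hba-a1, Alas2, Slc4a1 and Epb42 lay below the filter, and the others had no probe set with 1 symbol.

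Sptbn1 encodes beta-II spectrin, the main beta chain along axon shafts, and has 6 probe sets, all past the filter. The brightest, 1452143_at, which stood for the gene, ranged from 14.09 to 14.31 in PIO animals (median 14.18), against 14.12 to 14.37 in control animals (median 14.22). The groups overlapped almost wholly, with a difference of -0.028 (SE 0.040, adjusted p = 0.907). A wider gap appeared on 1419255_at, which ranged from 9.57 to 10.14 in PIO animals (median 9.85), against 10.04 to 10.20 in control animals (median 10.10). There 7 of 8 PIO animals lay below the lowest control, PIO animal 11 being the exception. The difference was -0.25 (SE 0.065, unadjusted p = 0.00129, adjusted p = 0.638 over 22811 probe sets). On 1444089_at the values were 9.60 to 10.62 in PIO animals and 10.33 to 10.86 in control animals, with a difference of -0.30 (SE 0.12, adjusted p = 0.667). The remaining Sptbn1 probe sets gave -0.12 (1451830_a_at), -0.074 (1419256_at) and 0.018 (1441507_at), none with an unadjusted p under 0.05. With the mean of all 6 standing for the gene, the Sptbn1 difference was -0.13 (SE 0.044, adjusted p = 0.623).

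The Sptbn1 probe sets thus did not agree in size, and whether they differ from each other was not tested. Deviations of 1419255_at, 1444089_at and 1451830_a_at went together, with r between 0.67 and 0.81 over 16 arrays. Without the 2 arrays farthest from the median, r was 0.33 for 1444089_at with 1419255_at, 0.44 for 1444089_at with 1451830_a_at and 0.64 for 1419255_at with 1451830_a_at. None of the 3 followed the brightest probe set (r between -0.081 and 0.15), and 1441507_at ran against 1419255_at (r = -0.51, and -0.28 without the 2 farthest arrays). Deviations of 1419256_at, whose difference was -0.074, went with 1419255_at and 1451830_a_at (r = 0.73 and 0.61). They went less with the brightest and with 1444089_at (r = 0.44 and 0.33). Without the 2 farthest arrays these r were 0.64, 0.56, 0.31 and 0.41. Without PIO animals 14 to 16 the difference was -0.16 (SE 0.058) for 1419255_at and -0.14 (SE 0.088) for 1444089_at. For 1444089_at it was -0.070 (SE 0.071) with the striatal marker mean as a covariate, -0.049 (SE 0.078) with the myelin marker mean and -0.18 (SE 0.15) with the parvalbumin marker mean. For 1419255_at the same covariates gave -0.16 (SE 0.059), -0.18 (SE 0.071) and -0.26 (SE 0.086).

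**Figure D2:**
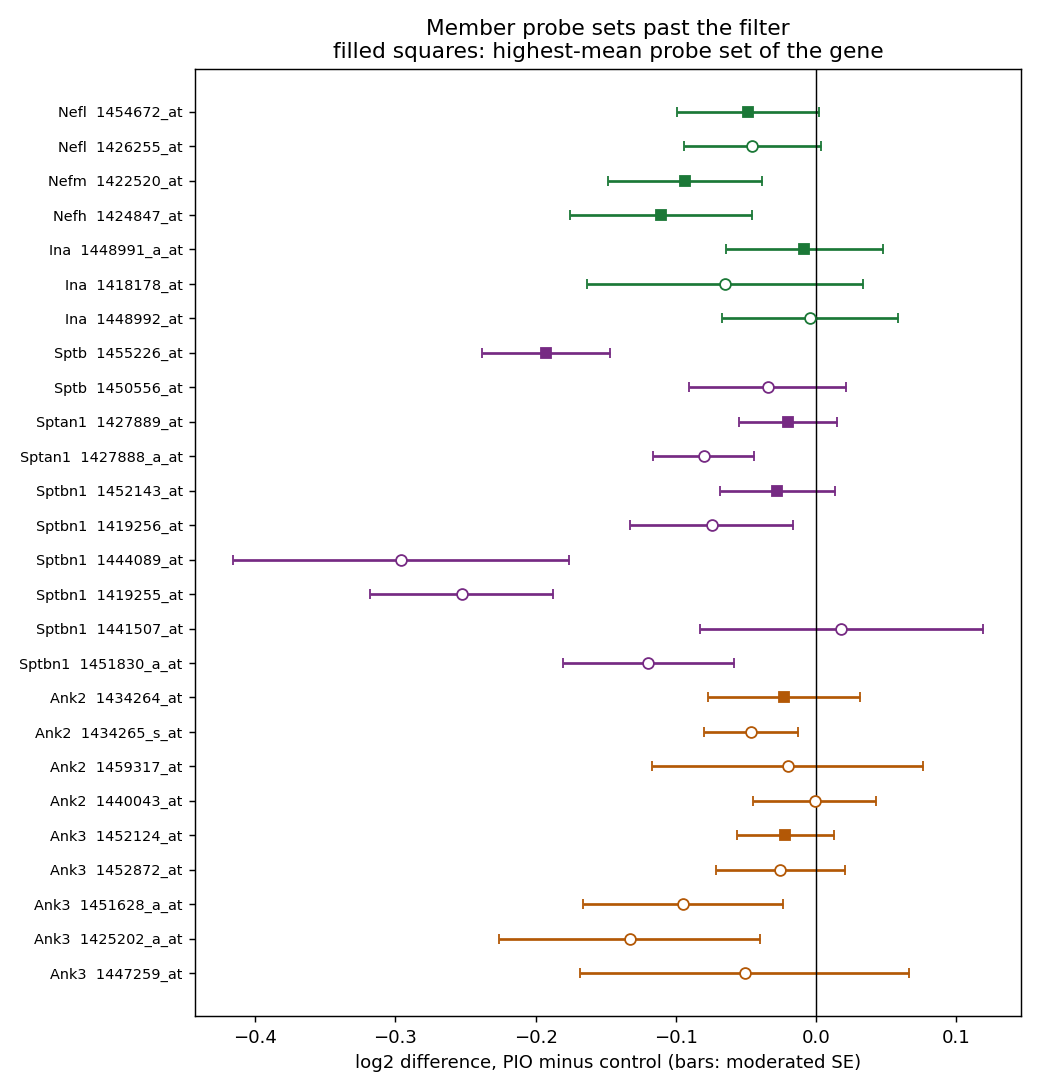
Log2 difference, PIO minus control, for the 26 member probe sets past the filter, grouped by neurofilament (green), spectrin (purple) and ankyrin (brown) genes, with moderated SE as bars. Filled squares are the probe sets with the highest mean of their gene, and 25 of the 26 points lie left of 0, with Sptbn1 1444089_at, Sptbn1 1419255_at and Sptb 1455226_at farthest.

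The stretches before the annotated starts of the beta spectrin genes are shown because the 3 member probe sets with the largest differences belong to these genes, and because Sptbn1 has 2 starts in the table used. The sequences are from RefSeq (GRCm38.p6), 250 bases before each start, 5′ to 3′ on the strand of the gene. Capitals mark AGGTCA, the hexamer bound by nuclear receptors such as the PPARs, and GGGCGG, the GC box, on either strand.
Sptb (chr12:76710548-76710797, minus strand): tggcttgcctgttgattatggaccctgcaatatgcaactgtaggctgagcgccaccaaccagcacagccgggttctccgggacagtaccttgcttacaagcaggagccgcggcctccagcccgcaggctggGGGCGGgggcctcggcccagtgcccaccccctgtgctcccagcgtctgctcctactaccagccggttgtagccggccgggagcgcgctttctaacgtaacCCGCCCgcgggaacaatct
Sptbn1, upstream start (chr11:30219773-30220022, minus strand): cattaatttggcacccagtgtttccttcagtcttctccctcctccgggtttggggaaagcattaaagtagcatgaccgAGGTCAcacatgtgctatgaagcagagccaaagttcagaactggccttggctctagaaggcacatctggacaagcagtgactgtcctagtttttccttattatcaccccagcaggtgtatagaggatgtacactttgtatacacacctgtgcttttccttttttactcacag
Sptbn1, downstream start (chr11:30198258-30198507, minus strand): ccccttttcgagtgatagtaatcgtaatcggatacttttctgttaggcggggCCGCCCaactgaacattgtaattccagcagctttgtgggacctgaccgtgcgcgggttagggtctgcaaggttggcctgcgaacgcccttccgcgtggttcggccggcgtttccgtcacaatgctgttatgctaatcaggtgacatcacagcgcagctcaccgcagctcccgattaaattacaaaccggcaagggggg
The Sptb window held GGGCGG 119 bases before the start on the gene's strand and 19 bases before it on the opposite strand. The upstream Sptbn1 window held AGGTCA 172 bases before the start, and the downstream one held GGGCGG on the opposite strand 198 bases before it. AGGTCA was present in 14% of 32851 such windows of all genes and GGGCGG in 32.7%. The members had 9 such windows, from 5 genes (Ina, Sptb, Sptan1, Sptbn1 and Ank2), and Nefl, Nefm, Nefh and Ank3 had none. Of the 9, 1 held AGGTCA and 4 held GGGCGG, the latter from Ina, Sptb, Sptan1 and Sptbn1. The direct repeat AGGTCANAGGTCA, the form that PPAR and RXR bind as a pair, contains AGGTCA. That repeat was in 0 of the 9 member windows and in 0.0335% of all windows. TATAAA was in 1 of the 9, a window of Ank2, and in 12.4% of all. These matches describe letters only.

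Sptan1 encodes alpha-II spectrin, the alpha chain that pairs with the beta spectrins of neurons and is cut by calpain in injured axons. On 1427889_at, the brighter probe set, it ranged from 13.38 to 13.62 in PIO animals (median 13.50), against 13.46 to 13.56 in control animals (median 13.53). That difference was -0.020 (SE 0.034, adjusted p = 0.924). On 1427888_a_at it ranged from 13.29 to 13.42 in PIO animals (median 13.35), against 13.34 to 13.53 in control animals (median 13.43). All 8 PIO animals lay below the control median there, with a difference of -0.080 (SE 0.036, adjusted p = 0.677), and the 2 probe sets correlated with r = 0.30.

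Counted over probe sets, 4 of the 26 had an unadjusted p under 0.05, all lower (Sptb 1455226_at, Sptan1 1427888_a_at, Sptbn1 1419255_at and 1444089_at). Over all 22811 probe sets 7.23% reached that level, 3.17% as lower probe sets. In all, 25 of 26 member probe sets had a lower mean with PIO, against 46.9% of all, and the median was -0.047. Probe sets of 1 gene read the same animals and partly the same transcripts, so they are not independent. With PIO animals 14 to 16 left out, a setting chosen after seeing the data, 17 of the 26 were lower.

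Both ankyrin genes had small differences on the probe sets that stood for them. Ank2, which encodes ankyrin-B of the axon shaft, ranged on 1434264_at from 13.34 to 13.61 in PIO animals (median 13.44), against 13.23 to 13.64 in control animals (median 13.48). The PIO animals lay within the control range, whose lower end was set by control animal 7 alone, the next control being at 13.46. The difference was -0.023 (SE 0.054, 95% interval -0.14 to 0.091), and it was -0.058 (SE 0.045) without control animal 7. Without PIO animals 14 to 16 it was 0.024 (SE 0.062). Its other tested probe sets gave -0.046 (1434265_s_at), -0.020 (1459317_at) and -0.00073 (1440043_at). Deviations on these correlated with those on 1434264_at with r = 0.54, -0.038 and -0.050.

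Ank3 ranged on 1452124_at from 13.96 to 14.11 in PIO animals (median 14.04), against 13.94 to 14.12 in control animals (median 14.07). The difference was -0.022 (SE 0.034, 95% interval -0.093 to 0.049), and it was -0.040 (SE 0.031) without control animal 2, the lowest control. It was -0.0096 (SE 0.034) without PIO animal 16, the lowest PIO animal, and -0.0052 (SE 0.039) without PIO animals 14 to 16. Its 4 other tested probe sets gave between -0.13 and -0.025, all lower and each with an unadjusted p above 0.05. Deviations on these 4 correlated with those on 1452124_at with r between -0.076 and 0.60. Without the 2 arrays farthest from the median of 1452124_at, r lay between -0.45 and 0.26. The 3 member probe sets under the filter were 1444023_at and 1440042_at of Ank2, with means of 3.04 and 2.71 in PIO animals and 3.09 and 2.77 in control animals, and 1457288_at of Ank3, with means of 2.11 in PIO animals and 2.16 in control animals.

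By animal, the low values were concentrated in PIO animals 14, 15 and 16. The mean of the 9 members, each relative to its mean over all 16 arrays, was -0.092, -0.13 and -0.10 log2 units in these 3 animals. It lay between -0.033 and 0.065 in the other 5 PIO animals, against -0.031 to 0.082 in control animals. For the neurofilament genes alone the means of the 3 animals were -0.13, -0.21 and -0.098, while the other PIO animals reached from -0.022 to 0.13 and control animals from -0.030 to 0.096. For Sptb and Nefm, PIO animals 9 and 11 were low as well. Relative to the control mean, Sptb stood at -0.21 and -0.23 log2 units in them and Nefm at -0.16 and -0.13. Without PIO animals 14 to 16 the Sptb difference was -0.15 (SE 0.049, adjusted p = 0.958).

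**Figure D3:**
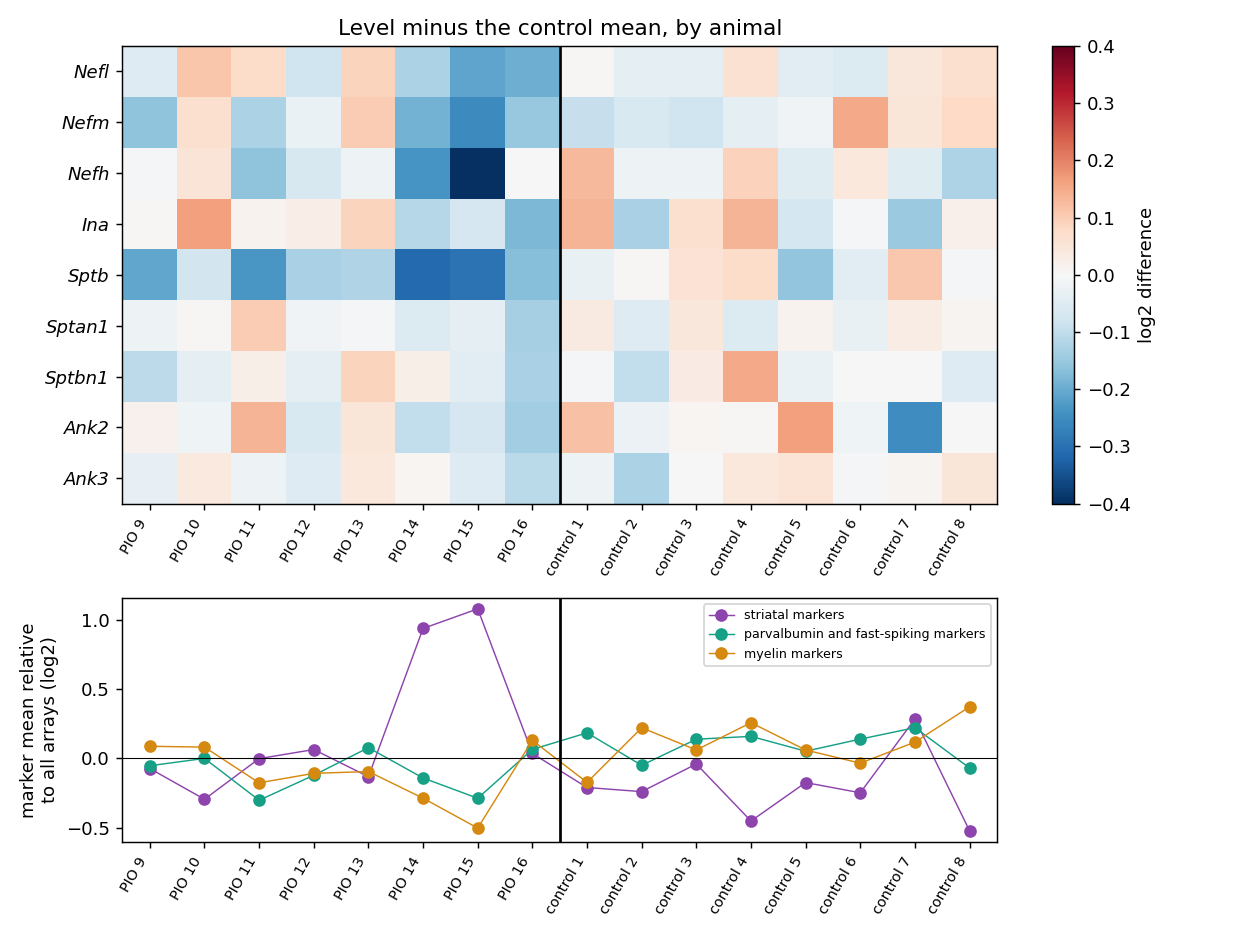
Upper panel, log2 level of each member minus its control mean, by animal, PIO animals left and control animals right of the line (blue is lower). Lower panel, the mean of 3 marker lists in the same animals, relative to all 16 arrays. PIO animals 14 and 15 are low for Nefl, Nefm, Nefh and Sptb, and stand at 0.94 and 1.08 for the striatal markers.

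Marker lists of other tissue also stood out in PIO animals 14 to 16, though not the same list in each. Of 11 striatal markers 8 were tested, all 8 higher with PIO. Their mean level was 8.09 to 9.46 log2 units in PIO animals, against 7.86 to 8.66 in control animals, with Drd2 below the filter. Relative to all arrays it stood at 0.94 and 1.08 in PIO animals 14 and 15 and at 0.28 or less in every other animal. Thalamic and habenular markers (8 of 10 tested, all higher; 8.09 to 9.35 in PIO animals and 8.09 to 8.57 in control animals; Gpr151 and Slitrk6 below the filter) were highest in PIO animal 16, at 0.96. They stood at 0.19 and -0.093 in PIO animals 14 and 15, and at 0.25 in PIO animal 12, where the members' mean was -0.018. The striatal mean was 0.035 in PIO animal 16. Markers of hippocampal subfields (11 of 13 tested, 7 lower; 8.98 to 9.72 in PIO animals and 9.27 to 9.61 in control animals) were lowest in PIO animals 15 and 14, at -0.46 and -0.35. General neuronal markers (12 of 12 tested, 5 lower) lay between 13.56 and 13.69 in PIO animals and between 13.56 and 13.71 in control animals. The part of these and the following marker lists in the members' differences was not tested beyond the covariate fits given here.

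Parvalbumin and fast-spiking markers were all lower with PIO, 8 of 8. This list holds genes of the fast-spiking interneurons, which are rich in neurofilaments. Its mean level was 9.77 to 10.15 in PIO animals, against 10.00 to 10.29 in control animals. Relative to all arrays it stood at -0.14, -0.29 and 0.064 in PIO animals 14, 15 and 16. The lowest value was -0.30 in PIO animal 11, where the mean of the 9 members was 0.0088. Pvalb itself was at 10.23 ± 0.27 in PIO animals and 10.51 ± 0.16 in control animals (SD, n = 8 each, adjusted p = 0.681). With the list mean as a covariate the Sptb difference was -0.12 (SE 0.052) and that of Nefm -0.033 (SE 0.068). The striatal marker mean as a covariate gave -0.15 (SE 0.048) for Sptb and -0.033 (SE 0.054) for Nefm. Myelin markers (13 of 15 tested, all 13 lower) had a mean level of 10.99 to 11.62 in PIO animals and 11.32 to 11.86 in control animals. Relative to all arrays they stood at -0.29, -0.50 and 0.13 in PIO animals 14, 15 and 16. With them as a covariate the differences were -0.14 (SE 0.048) for Sptb and -0.038 (SE 0.068) for Nefh. Microglial markers were lower in 12 of 13 (mean level 8.71 to 9.16 in PIO animals and 8.72 to 9.38 in control animals) and astrocyte markers in 9 of 11 (11.81 to 12.13 in PIO animals and 12.00 to 12.26 in control animals). Endothelial and pericyte markers were lower in 5 of 10, with Cdh5 below the filter. Choroid plexus markers were higher in 10 of 10, with mean levels from 4.35 to 10.73 in PIO animals and from 4.70 to 10.50 in control animals. Beside the counts of all these marker lists, 47.3% of the 12266 genes were lower with PIO. None of the marker genes passed limma's adjusted test.

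The array number at the head of each label gave a further split. It was 17 to 24 in 6 PIO animals and 10 to 13 in 4 control animals, and 5 and 6 in 2 PIO animals and 1 to 4 in 4 control animals, so array number and diet cannot be told apart within a range. In the higher range Sptb was at 10.04 ± 0.083 in PIO animals and 10.22 ± 0.11 in control animals (SD, n = 6 and 4), a difference of -0.18 (SE 0.064). In the lower range its means were 10.10 in PIO animals and 10.27 in control animals (n = 2 and 4), and with the range as a block the difference was -0.18 (SE 0.045). The ranges did not go the same way for Nefm or for Sptbn1 on 1444089_at. Nefm had means of 12.38 in PIO animals and 12.56 in control animals in the higher range (difference -0.17, SE 0.071, adjusted p = 0.622), and 12.44 in PIO animals and 12.42 in control animals in the lower one. On 1444089_at the means were 10.15 in PIO animals and 10.60 in control animals in the higher range, and 10.53 in PIO animals and 10.48 in control animals in the lower one. A code at the end of the labels, of unstated meaning, was shared by 11 arrays (6 PIO and 5 control). On these alone the differences were -0.14 (SE 0.055) for Sptb, -0.089 (SE 0.059) for Nefh and 0.038 (SE 0.051) for Nefl.

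**Figure D4:**
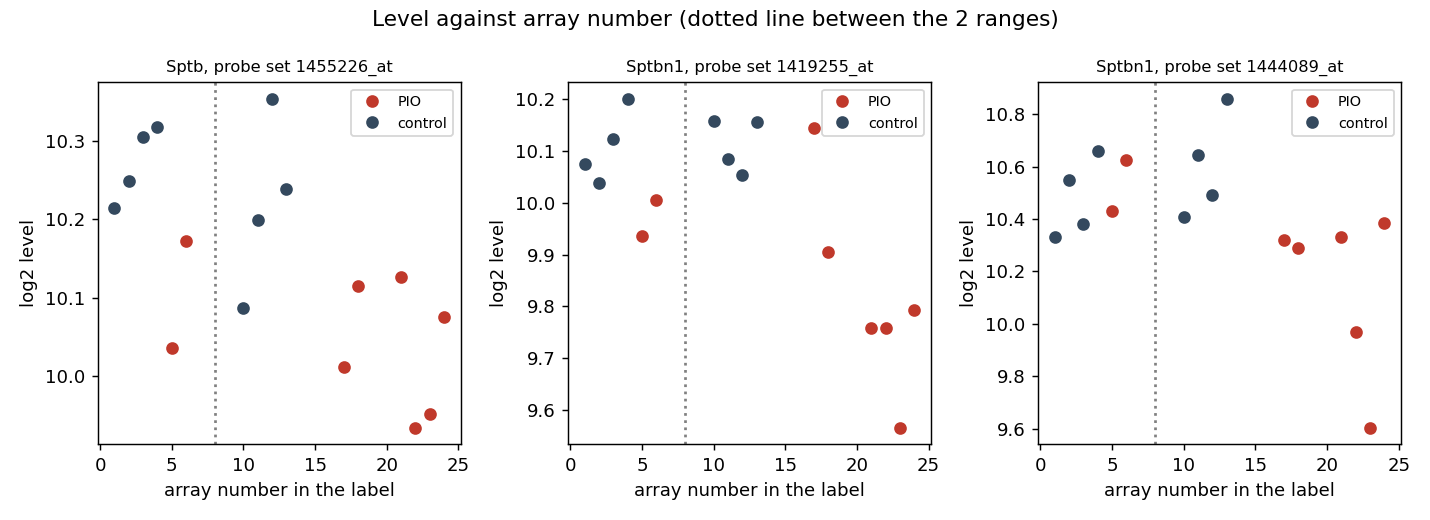
Log2 level against the array number in the label for Sptb (1455226_at) and for the Sptbn1 probe sets 1419255_at and 1444089_at, PIO in red and control in blue. In each range the PIO arrays carry the higher numbers, and on 1444089_at the 2 low-numbered PIO arrays lie among the controls.

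Members varied together between animals of a group to a moderate degree. Over 16 arrays, with group means removed, 33 of 36 pairs of members correlated above 0, with a median r of 0.41, and the median r of members with all other genes was 0.0025. The tightest pairs were Nefl with Ina (r = 0.63, rho = 0.67), Sptbn1 with Ank3 (r = 0.62, rho = 0.51) and Nefl with Nefm (r = 0.62, rho = 0.58). Without the 2 arrays farthest from the median of the first gene of each pair, r was 0.48, 0.55 and 0.36. For some other pairs r then changed sign, such as Nefm with Sptbn1 (0.21 to -0.016) and Sptan1 with Sptbn1 (0.27 to -0.11). For Ina with Sptb it rose, from 0.37 to 0.72. The value of 0.0025 is over all other genes tested, and genes of like level or cell type were not compared. Sptb went with Nefh and Nefl (r = 0.54 and 0.53) and not with its partner chain gene Sptan1 (r = 0.04), and against Ank2 (r = -0.38). Without the 2 arrays farthest from the median of Nefh or Nefl, r with Sptb was 0.35 for each. For Sptb with Ank2, r was -0.25 without the 2 arrays farthest for Sptb, and rho over 16 arrays was -0.17. The points share arrays and normalization, and no p is given.

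The genes whose pattern was most like each member's were taken as the 2 with the highest r among 12265 others, again with group means removed over 16 arrays. For Nefh the closest was Syt2, a synaptotagmin of fast synapses and a member of the parvalbumin list (r = 0.89), followed by Akain1 (0.86). For Nefl they were Exoc6b, of the exocyst, and Mmd (r = 0.94 and 0.91), and for Nefm Hnrnpm and Tmem35b (0.84 and 0.80). Ina was closest to Plch2 and Zmynd8 (0.88 and 0.87) and Sptb to Arl15 and Ogfrl1 (0.87 and 0.86). For Sptbn1 both were genes of microtubules and their transport, Tuba4a, an alpha tubulin, and Dync1h1, the dynein heavy chain (0.92 and 0.88). Sptan1 was closest to Chst14 and Taf15 (0.87 and 0.84), Ank2 to Prex1 and Pdcd7 (0.89 and 0.85), and Ank3 to Miat and Trank1 (0.89 and 0.85). Being the highest of so many, these r values are descriptions. Without the 2 arrays farthest from the median of the member, r was 0.53 for Chst14 and 0.57 for Trank1. For the others it then lay between 0.67 (Tmem35b) and 0.92 (Exoc6b).

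Other genes of the membrane skeleton were mostly lower as well, and none passed the test. Of 19 listed partners of spectrin, such as adducins, band 4.1 proteins and calpains, 16 were tested and 12 were lower with PIO. Their median was -0.064, and 3 had an unadjusted p under 0.05 in limma, all lower. Over all 12266 genes 47.3% were lower, 7.00% reached that unadjusted level and 3.15% reached it as lower genes. Epb41l2, a band 4.1 protein that links spectrin and actin to membrane proteins, was at 10.28 ± 0.083 in PIO animals and 10.43 ± 0.076 in control animals (SD, n = 8 each), a difference of -0.15 (SE 0.043, adjusted p = 0.584). The adducin genes Add3 and Add2, whose products cap actin at the spectrin junctions, differed by -0.12 (SE 0.047) and -0.10 (SE 0.048). Of the genes of the initial segment and node 17 of 19 were tested and 13 were lower, with a median of -0.055 and 1 at that level. That gene was Kcna1, an axonal potassium channel, at 12.91 ± 0.12 in PIO animals and 13.04 ± 0.075 in control animals (SD, n = 8 each; difference -0.13, SE 0.052). The adhesion genes L1cam and Cntn1 differed by 0.13 (SE 0.066) and -0.061 (SE 0.033).

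The other filament and microtubule lists were divided between higher and lower. Of 9 other intermediate filament genes and their partners 7 were tested, 3 of them lower. Their median was 0.0042 and their mean -0.012, which differ in sign. Among these were Dst, a spectrin-family linker (-0.080, SE 0.047), Gfap, the astrocyte filament (-0.26, SE 0.18), and Prph, peripherin (0.15, SE 0.11). All 22 genes of axonal microtubules and transport were tested, 11 lower and 11 higher, with a median of 0.0076. None of either list had an unadjusted p under 0.05. Gap43, a growth cone protein, differed by 0.28 (SE 0.13), and Tuba4a and Dctn1, of dynactin, by -0.071 (SE 0.044) and -0.068 (SE 0.042). None of the genes in the 4 lists passed limma's test adjusted over all genes.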

How the data were processed

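Hippocampal RNA of 16 mice was measured on Affymetrix arrays. The deposited values are log2 levels, 1 per probe set and array, a scale taken from the values themselves (0.33 to 16.6). Per the submitters' processing notes, the tools were MAS5, GCRMA and R 2.7.1. Which of them made the values was not given in the sources used here. If it was GCRMA, that would draw values near background together.

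Of 45101 probe sets, 64 controls were left out, and 34945 of the rest had 1 gene symbol in the platform annotation. Those with a mean above the 40th percentile (3.58) numbered 22811, and each of 12266 genes was represented by its brightest probe set. Differences are PIO minus control from lmFit and eBayes of limma 3.58.1 (R 4.3.3), group as the only term, with Benjamini-Hochberg adjustment over all genes or over all probe sets. SE is moderated. The fit was tested on simulated data. The animal was the replicate, and the groups share no subject numbers. Members, lists and settings were chosen with earlier results of these data known. All 9 members, up to 3 genes of each pathway list with the smallest p, and the 2 genes most like each member are named. The array codes and numbers were used as blocks, and marker list means as covariates.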

Additional observations from a re-analysis of the deposited data

Results flagged for a closer look

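Over the 26 tested member probe sets, each looked at in both groups (52 groups of 8), 4 held an animal set far apart from the other 7. Chance gives about 1 in 20 such groups where groups are independent and values follow a normal distribution. These 52 groups share animals and hold several probe sets of the same gene, so the 4 cannot be set against that rate. PIO animal 11 was highest on Sptbn1 1419256_at, at 11.71, with the next PIO animal at 11.49. Control animal 1 was highest on Sptb 1450556_at, at 5.93, with the next at 5.72. Control animal 7 was lowest on Ank2 1434264_at, at 13.23, with the next at 13.46. Control animal 2 was lowest on Ank3 1452124_at, at 13.94, with the next at 14.04. None of these animals is among PIO animals 14 to 16.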

How the results depend on the processing

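Across 33 other settings no member reached an adjusted p under 0.05 (smallest 0.242, for Sptb without PIO animal 10), and limma called 0 genes in each. The fit over all probe sets was repeated under 12 of these settings, with 0 called in each. Of 297 member differences recomputed, 273 kept their direction and 24 turned. With no filter, a stricter filter, no shared-sequence probe sets or a trended prior, each member difference was unchanged, so it could not turn. Sptb and Nefm kept their direction in all 33 settings, these included, Sptb with values from -0.21 to -0.11. The number of genes at an unadjusted p under 0.05 was 290 on the most common array code, 534 without PIO animals 14 to 16, and 469, 503 and 354 with myelin, striatal or parvalbumin covariates, and it ran from 575 to 1137 with 1 animal left out. Of the members, 5 were lower on the most common array code and 5 without PIO animals 14 to 16, and 8 to 9 with 1 animal left out. That code does not include PIO animals 15 and 16 either. The members' median was -0.065 with probe sets averaged, and from -0.045 to -0.013 with 1 animal left out.

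On the most common array code the signs turned for Nefl (0.038; 0.025 on 1426255_at), Ina (0.032; 0.0081 on 1418178_at, 0.038 on 1448992_at), Sptbn1 (0.012; -0.076 on 1441507_at), Ank3 (0.018; 0.042 on 1447259_at) and Ank2 1459317_at (0.079). Without PIO animals 14 to 16 they turned for Nefl (0.029), Ina (0.059), Sptan1 (0.014) and Ank2 (0.024). With the striatal covariate they turned for Nefl (0.012), Ina (0.051) and Ank2 (0.023), with the parvalbumin covariate for Nefh (0.032) and Ina (0.025), and with the choroid plexus covariate for Ina (0.0043). In arrays 10 to 24 they turned for Ina (0.013; 0.025 on 1448992_at), Sptbn1 (0.0069; -0.13 on 1441507_at), Sptb 1450556_at (0.0048) and Ank2 1459317_at (0.011). With the array-number range as a block they turned for Ina (0.020; 0.013 on 1448992_at), Sptbn1 1441507_at (-0.049) and Ank2 1440043_at (0.0073), and with the array code as a block for Ank2 1459317_at (0.0092) and 1440043_at (0.00047). With 1 animal left out Ina ran from -0.033 to 0.016 and Ank2 from -0.058 to 0.00062. The cause was not tested. The erythrocyte covariate was not run, since no marker of that list passed the filter. No paired analysis was possible because the groups share no subject numbers.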
